A study of Rattus norvegicus with 3 samples.

Results

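Upper layer and callosal projection neurons of the cerebral cortex are marked by a set of genes that are also used to follow where this identity begins. Described here are 9 of them, Cux1, Cux2, Rorb, Unc5d, Mdga1, Inhba, Lmo4, Dok5 and Limch1, looked up by symbol among the 29772 genes of the deposited matrices, and all 9 were found. The rule that picks them is a list of names and uses no threshold on a measured value, but the names were chosen with earlier results of these data known. The data are counts of unique molecular identifiers (UMIs), which stand for captured RNA molecules, in single cells of wild-type rat embryos, taken from the cerebral cortex. The cells were fresh primary cells freed from the tissue with papain, and 1 droplet library each was labelled embryonic day 14 (E14), 16 (E16) and 18 (E18). No strain, number of embryos or drug treatment is given in the sources used here. A protocol attached to the libraries also speaks of an expansion culture, oligonucleotide tagging and a sort for human cells, which does not match primary rat cells, so which of those steps took place is not known.

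Upper layer neurons are born after deep layer neurons, migrate past them, and many of them send axons through the corpus callosum to the other hemisphere. Neurons arise from radial glia, the stem cells of the ventricular zone, either directly or through intermediate progenitors, and several upper layer genes are already read in the subventricular zone where those progenitors divide. Bcl11b, a zinc finger factor of corticofugal neurons, marks the other large projection type and is given beside the 9 genes for contrast.

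Stage genes did not follow the labels of the libraries. In radial glia Hmga2, a chromatin protein of early progenitors, was at 226 UMIs per 1000000 UMIs of the class (CPM) in the library labelled E16, 21.6 CPM in that labelled E18 and 11.7 CPM in that labelled E14. Aldoc, a glycolytic enzyme of late radial glia and astrocytes, ran the other way over the same order of libraries, at 17.2, 241 and 732 CPM. The library labelled E14 therefore carried the latest profile by these genes and that labelled E16 the earliest. Every direction below is between libraries as labelled, and the comparison of E18 with E16 is the one made without the library labelled E14.

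The libraries held 62740631, 80974234 and 73727823 UMIs in label order (E14, E16, E18), and the 9 genes took 41303, 18686 and 37947 UMIs of the cells kept. Each pair of libraries shared 12 to 17 barcodes. After filters 4286, 4977 and 5431 cells remained, with median depths of 11193, 12277 and 10470 UMIs. They were clustered without the 9 genes and named from marker genes as radial glia (405, 2978 and 1773 cells in label order), intermediate progenitors (358, 471 and 971), newborn excitatory neurons (1334, 585 and 1749) and maturing excitatory neurons (1848, 0 and 636). A further 235 cells labelled E14 and 3 labelled E18 were excitatory neurons that could not be split into newborn and maturing. All 9 clusters of excitatory neurons took over 90% of their cells from 1 library, so library and cluster cannot be told apart in neurons. Nearly all newborn neurons labelled E16 fell in cluster 13 (580 cells, 98.6% from that library). Its leading genes, given below, were not those of the newborn clusters labelled E14 and E18. Steps to newborn neurons labelled E16 therefore do not lead to the same clusters as in the other libraries. With 1 library per label no difference has a replicate check, and every interval in brackets is for counting error only. It is a 95% interval, except beside a median of the 9 genes, where the medians of their lower and upper limits are given.

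Among progenitors Cux1, a homeodomain transcription factor of upper layer neurons, was already above its level over all excitatory neurons. Radial glia held 142 (133 to 152), 129.7 (127 to 133) and 153 (148 to 158) CPM of Cux1 in label order. Intermediate progenitors held 132, 138 and 157 CPM, which differed from radial glia by no more than 1.07-fold in any library. In newborn neurons Cux1 was 1.27-fold (1.16 to 1.40) higher than in intermediate progenitors labelled E14, but 2.29-fold (2.0 to 2.62) lower labelled E16 and 1.99-fold (1.85 to 2.14) lower labelled E18. The same locus also encodes a Golgi protein, CASP, and counts of transcript ends listed under 1 symbol do not tell the products apart.

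Cux2, the close relative of Cux1 in upper layer neurons and in part of the subventricular zone, was higher at each step up to newborn neurons. Its level in radial glia was 10.1, 8.83 and 9.27 CPM in label order, with overlapping intervals. Intermediate progenitors held 23.9, 12.9 and 16.7 CPM, which is 2.36-fold (1.70 to 3.29), 1.46-fold (1.11 to 1.88) and 1.80-fold (1.47 to 2.19) above radial glia. In newborn neurons the 3 levels in label order were 70.2 CPM (65.2 to 75.5), then 17.7 (14.3 to 21.7) and 32.4 (29.6 to 35.4). Within each library newborn neurons were thus the highest for Cux2 of the lineage classes found there, which labelled E16 leave out maturing neurons. The step from intermediate progenitors labelled E16 was 1.38-fold, with an interval (0.999 to 1.91) that includes no difference.

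The stretch of 250 bases before the annotated start is printed for Cux2, Rorb and Inhba, because these genes took different courses in neurons: Cux2 peaked in newborn neurons, whereas Rorb and Inhba were higher in maturing neurons, in different clusters. The sequences are RefSeq promoters of build GRCr8, which is a later build than that of the deposited counts, and 7 of the 9 genes had an entry; Unc5d and Mdga1 are only named. Capitals mark matches, on both strands, to the E-box CAGATG of proneural factors, the POU octamer ATGCAAAT, the TATA box TATAAA, the CCAAT box CCAAT and the GC box GGGCGG. Cux2 lies at chr12:40179032-40179281 on the plus strand, Rorb at chr1:225970974-225971223 on the minus strand and Inhba at chr17:53804509-53804758 on the minus strand, each written 5′ to 3′ on the gene's strand.
Cux2: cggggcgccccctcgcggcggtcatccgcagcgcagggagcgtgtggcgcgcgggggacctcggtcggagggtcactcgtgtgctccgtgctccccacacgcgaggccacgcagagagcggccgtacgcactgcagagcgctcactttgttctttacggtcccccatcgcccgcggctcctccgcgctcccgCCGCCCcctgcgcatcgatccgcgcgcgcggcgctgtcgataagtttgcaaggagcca
Rorb: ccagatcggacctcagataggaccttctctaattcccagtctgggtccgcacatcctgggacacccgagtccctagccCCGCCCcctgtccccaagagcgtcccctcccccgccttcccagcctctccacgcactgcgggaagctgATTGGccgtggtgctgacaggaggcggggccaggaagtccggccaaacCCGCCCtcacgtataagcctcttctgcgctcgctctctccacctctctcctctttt
Inhba: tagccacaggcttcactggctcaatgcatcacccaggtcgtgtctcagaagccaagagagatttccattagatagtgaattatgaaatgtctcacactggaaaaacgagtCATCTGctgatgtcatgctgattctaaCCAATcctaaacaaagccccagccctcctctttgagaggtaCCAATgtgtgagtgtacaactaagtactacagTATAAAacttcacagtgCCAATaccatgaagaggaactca

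The Inhba stretch was the only one of these 3 with a TATA box (1 match) or an E-box (1 match), and it held 3 CCAAT boxes and no GC box. Rorb held 2 GC boxes and 1 CCAAT box, and Cux2 held 1 GC box. Of 33469 promoters of the same length, 14% hold the E-box, 1.56% the octamer, 12.9% the TATA box, 34.0% the CCAAT box and 30.5% the GC box. The GC content was 72.4% for Cux2, 64% for Rorb and 43.6% for Inhba, against a median of 51.2% over all promoters. None of the 11 promoters of the 7 genes held the octamer letters. A match describes the letters and not a bound site.

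Rorb, a nuclear receptor of layer 4 neurons, took few UMIs in every class. Radial glia held 11.2 CPM (8.63 to 14.2) labelled E14, against 6.63 (5.91 to 7.42) labelled E16 and 9.95 (8.75 to 11.3) labelled E18. Intermediate progenitors held 5.29, 8.57 and 11.3 CPM, and newborn neurons 3.52, 6.03 and 6.16 CPM. The newborn value was the lowest of the lineage classes found in a library, by the point estimates, with no maturing neurons labelled E16. In maturing neurons Rorb stood at 11.6 (10.3 to 13) and 11.9 (9.64 to 14.5) CPM labelled E14 and E18, which is 3.30-fold (2.34 to 4.77) and 1.93-fold (1.44 to 2.59) above the newborn neurons of the same library.

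Lmo4, a LIM-only co-regulator of transcription found in callosal and in some subcortically projecting neurons, was at 55.5, 58.8 and 69 CPM in radial glia and 103, 61.7 and 85.3 CPM in intermediate progenitors. It was at 237, 211 and 240.2 CPM in newborn neurons, 2.29-fold (2.07 to 2.54), 3.41-fold (3.02 to 3.87) and 2.82-fold (2.62 to 3.03) above intermediate progenitors. Maturing neurons held 201 CPM labelled E14 and 206 CPM labelled E18, 1.18-fold and 1.17-fold below newborn neurons. Lmo4 was thus the gene with the most even levels in newborn neurons across the libraries, which spanned 211 to 240.2 CPM.

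The surface proteins include Unc5d, which was highest in newborn neurons in each library, though no maturing neurons were found labelled E16. Unc5d, a receptor of the netrin-binding Unc5 family known from multipolar cells of the subventricular zone, stood at 13.9, 4.03 and 10.7 CPM in radial glia and at 79.1, 11.2 and 71.9 CPM in intermediate progenitors. In newborn neurons it reached 380.6 (369 to 393), 78.8 (71.4 to 86.7) and 332 (323 to 342) CPM. Those levels were 4.81-fold (4.31 to 5.39), 7.05-fold (5.37 to 9.40) and 4.62-fold (4.29 to 4.98) above intermediate progenitors. Maturing neurons held 71.3 CPM labelled E14 and 67.4 CPM labelled E18, 5.33-fold (5.05 to 5.63) and 4.93-fold (4.52 to 5.40) below newborn neurons.

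Mdga1, a membrane-anchored immunoglobulin superfamily protein involved in the radial migration of upper layer neurons, was already high in intermediate progenitors. It stood at 21.1, 8.49 and 12.0 CPM in radial glia and at 140.0, 61.9 and 149 CPM in intermediate progenitors, which is 6.62-fold (5.46 to 8.09), 7.29-fold (6.28 to 8.46) and 12.4-fold (10.9 to 14) higher. In newborn neurons it was higher again labelled E14 (240.1 CPM) and E18 (217 CPM). Labelled E16, with nearly all newborn neurons in cluster 13, it stood at 36.4 CPM, 1.70-fold (1.42 to 2.04) below intermediate progenitors. Maturing neurons held 92.9 and 91.0 CPM labelled E14 and E18, 2.59-fold (2.45 to 2.73) and 2.39-fold (2.20 to 2.59) below newborn neurons. The levels of Unc5d and Mdga1 in maturing neurons did not differ between these libraries beyond counting error.

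Inhba, which encodes the βA subunit of activins and inhibins, secreted ligands of the TGF-β family, took almost no UMIs in progenitors. In radial glia it was at 1.01, 0.129 and 0.199 CPM, and in intermediate progenitors at 0.690 CPM, 0 CPM (0 UMIs, which by a limit of 3 counts allows up to 0.559 CPM) and 0.0886 CPM. Newborn neurons held 2.19, 0.754 and 2.33 CPM. Maturing neurons labelled E14 held 22.6 CPM (20.8 to 24.4), 10.3-fold (6.81 to 16.4) above newborn neurons of that library, against 3.92 CPM (2.68 to 5.53) and 1.68-fold (1.01 to 2.78) labelled E18.

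Dok5, an adaptor protein of receptor tyrosine kinases, and Limch1, a protein with LIM and calponin homology domains that binds non-muscle myosin, were interrupted at the intermediate progenitor. Dok5 was at 103, 16.8 and 123 CPM in radial glia and at 12.2, 1.49 and 13.6 CPM in intermediate progenitors, which is 8.47-fold (6.39 to 11.4), 11.3-fold (5.69 to 26.2) and 9.03-fold (7.68 to 10.7) lower. It was back at 71.2, 7.35 and 29.6 CPM in newborn neurons and at 97.2 and 43.4 CPM in maturing neurons labelled E14 and E18. Limch1 was at 108, 14.5 and 52.6 CPM in radial glia, 52.7, 5.78 and 39.1 CPM in intermediate progenitors, and 69.9, 14.7 and 38.1 CPM in newborn neurons. Its dip was smaller, 2.05-fold (1.76 to 2.39), 2.51-fold (1.75 to 3.72) and 1.35-fold (1.21 to 1.5), and labelled E18 newborn neurons did not differ from intermediate progenitors beyond counting error.

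The steps between classes depended on how the cells were clustered, which decides where newborn neurons end and maturing neurons begin. At Leiden resolution 0.5 the maturing class labelled E18 held 1515 cells in place of 636. Over the 6 other clusterings and cell filters Unc5d in maturing neurons labelled E18 lay between 6.11-fold and 1.86-fold below newborn neurons, and Mdga1 between 2.83-fold and 1.32-fold below, the smallest differences being at that resolution. Cux1 labelled E18 lay 2.48-fold to 5.85-fold below (6.51-fold in the main clustering), and Cux2 2.22-fold to 8.35-fold below (9.45-fold). Dok5 labelled E18 ranged from 1.11-fold to 6.03-fold above newborn neurons. Rorb labelled E18 was 0.931-fold the newborn level when the libraries were clustered separately, and Inhba was 0.278-fold that level with doublets kept. Labelled E14 the stricter cell filter left 55 maturing and 26 newborn neurons, where Unc5d was 1.90-fold and Mdga1 1.21-fold below newborn neurons and the directions of Cux2 (1.89-fold above) and Rorb (5.30-fold below) were opposite to those given. Under the 5 other settings Unc5d labelled E14 lay 4.69-fold to 8.33-fold below, Mdga1 2.35-fold to 3.25-fold below and Rorb 3.38-fold to 4.03-fold above. The return of Dok5 in newborn neurons labelled E18 (2.17-fold above intermediate progenitors) was 1.06-fold at resolution 0.5, and that of Limch1 labelled E16 (2.55-fold) was 0.384-fold when the libraries were clustered separately. Unc5d in newborn neurons lay above intermediate progenitors in every library under all 6, by 1.72-fold to 7.13-fold.

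**Figure D1:**
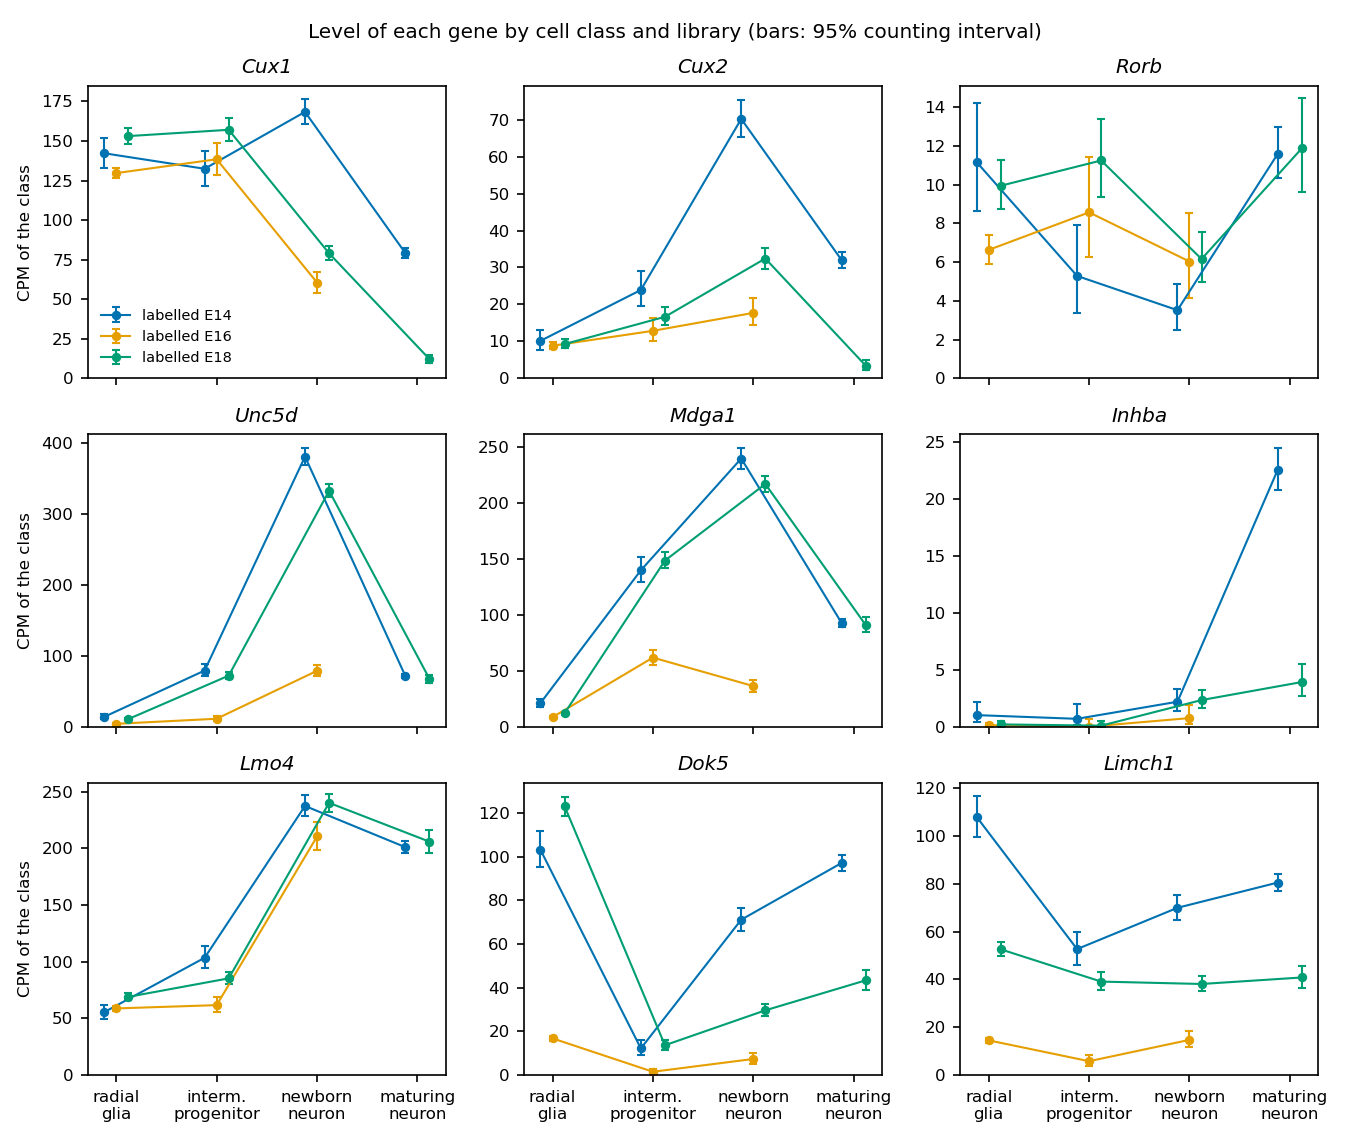
Level of each of the 9 genes in CPM (vertical axis, from 0, scaled per gene) in radial glia, intermediate progenitors, newborn and maturing excitatory neurons (horizontal axis), with 1 point per library and 95% counting intervals as bars. Unc5d and Mdga1 peak in newborn neurons labelled E14 and E18, Dok5 has its minimum in intermediate progenitors, and no maturing neurons were found in the library labelled E16.

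Taking all excitatory neurons against radial glia, some of the genes were higher and others lower. A gene is called here when its log2 ratio with 1 CPM added passes 2-fold. In the library labelled E14, 5 of the 9 were called higher in neurons and 0 lower, where 13.4% of the 10183 genes with at least 5 CPM on average were called higher and 19.6% lower. In that labelled E16, 3 were higher and 2 lower (14.7% and 17% of 10031 genes), and in that labelled E18, 5 were higher and 2 lower (13.7% and 17.1% of 10035 genes). Inhba lay under that minimum labelled E16 and E18, and without it the counts labelled E18 were 4 higher and 2 lower of 8. The median log2 ratio of the 9 was 1.89 (1.54 to 2.24), 0.64 (0.05 to 1.18) and 1.19 (0.98 to 1.39), against -0.19, -0.06 and -0.09 for all genes tested.

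Unc5d, Mdga1 and Lmo4 were called higher in neurons in all 3 libraries. Unc5d was 11.0-fold (8.83 to 13.8), 19.6-fold (16.4 to 23.4) and 22.5-fold (19.9 to 25.5) higher in label order. Mdga1 was 6.47-fold (5.42 to 7.79), 4.29-fold (3.59 to 5.11) and 14.4-fold (12.8 to 16.3) higher, and Lmo4 4.56-fold (4.09 to 5.11), 3.58-fold (3.34 to 3.84) and 3.32-fold (3.14 to 3.5). Cux2 was called higher labelled E14 (3.96-fold, 3.06 to 5.21) and E18 (2.41-fold, 2.06 to 2.83), and so was Inhba, at 15.2-fold (6.96 to 41.7) and 14.5-fold (5.91 to 46.0). Cux1 went the other way, 2.14-fold (1.92 to 2.41) lower in neurons labelled E16 and 2.74-fold (2.58 to 2.92) lower labelled E18, as did Dok5, 2.29-fold (1.66 to 3.24) and 3.56-fold (3.30 to 3.85) lower. Rorb and Limch1 were not called in any library, so 4 of the 9 (Cux1, Rorb, Dok5 and Limch1) were not called higher in neurons as a whole in any library. The median labelled E18 was 0.34 with 10 CPM added, and that labelled E14 was 0.66 with newborn neurons alone.

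Within excitatory neurons the genes divided the clusters, most clearly among the maturing neurons labelled E14. Cluster 2 (1112 cells) and cluster 7 (728 cells) came almost wholly from that library. Cluster 2 held 77.8 CPM of Bcl11b and cluster 7 held 702 CPM of it. Bcl11b and the other layer genes listed for contrast were kept out of the clustering, as were the 9 genes.

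In cluster 2 Cux1 was at 135 CPM (130 to 141) and in cluster 7 at 9.91 CPM (8.21 to 11.8). Cux2 was at 55.9 against 2.72 CPM, Unc5d at 107 against 26.9 CPM, and Mdga1 at 125 against 52.7 CPM. Inhba was at 39.6 CPM (36.5 to 43.0) in cluster 2, against 1.49 CPM (0.881 to 2.35) in cluster 7 and at most 4.33 CPM in any other cluster of excitatory neurons. Dok5 (120.5 against 67.9 CPM) and Limch1 (103 against 53.4 CPM) differed less. Lmo4 (185 against 219 CPM) and Rorb (4.57 against 20.3 CPM) were higher in cluster 7. Rorb had its highest level of the 9 excitatory neuron clusters there (17.8 to 23.0).

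Maturing neurons labelled E18 formed cluster 10 (644 cells), which held 1095 CPM of Bcl11b. Its Cux1 (11.4 CPM) and Cux2 (2.98 CPM) levels lay far below those of cluster 2 and near those of cluster 7. Its Inhba level (3.85 CPM, 2.61 to 5.46) also lay far below that of cluster 2 but above that of cluster 7 (1.49 CPM, 0.881 to 2.35). Its Unc5d (68.1 CPM) and Mdga1 (91.3 CPM) levels lay between those of both clusters. Cux1 and Cux2 were lower in maturing neurons labelled E18 than in those labelled E14 (6.52-fold, 5.33 to 8.06, and 9.33-fold, 6.41 to 14.1). Of the 1112 cells of cluster 2, 8 were labelled E18. The part of the clusters in that difference was not tested and cannot be told apart from the library.

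Newborn neurons of the same library also differed by cluster. Labelled E14, cluster 6 (778 cells) exceeded cluster 14 (562 cells) for Cux1 (202 against 118 CPM), Cux2 (87.8 against 47.9 CPM) and Dok5 (101 against 28.3 CPM). Unc5d (382 against 384 CPM) did not differ beyond counting error between them. Labelled E18, cluster 4 (886 cells) exceeded cluster 5 (862 cells) for Dok5 (48.6 against 7.47 CPM), while Cux1 was lower (57.8 against 105 CPM). Dok5 and Cux1 were thus higher in the same newborn cluster labelled E14 and in different ones labelled E18. The unsplit neurons labelled E14 (cluster 18, 238 cells) had Lmo4 at 697 CPM (669.8 to 725), the highest level of that gene in any cluster of excitatory neurons, with Dok5 at 127 CPM.

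**Figure D2:**
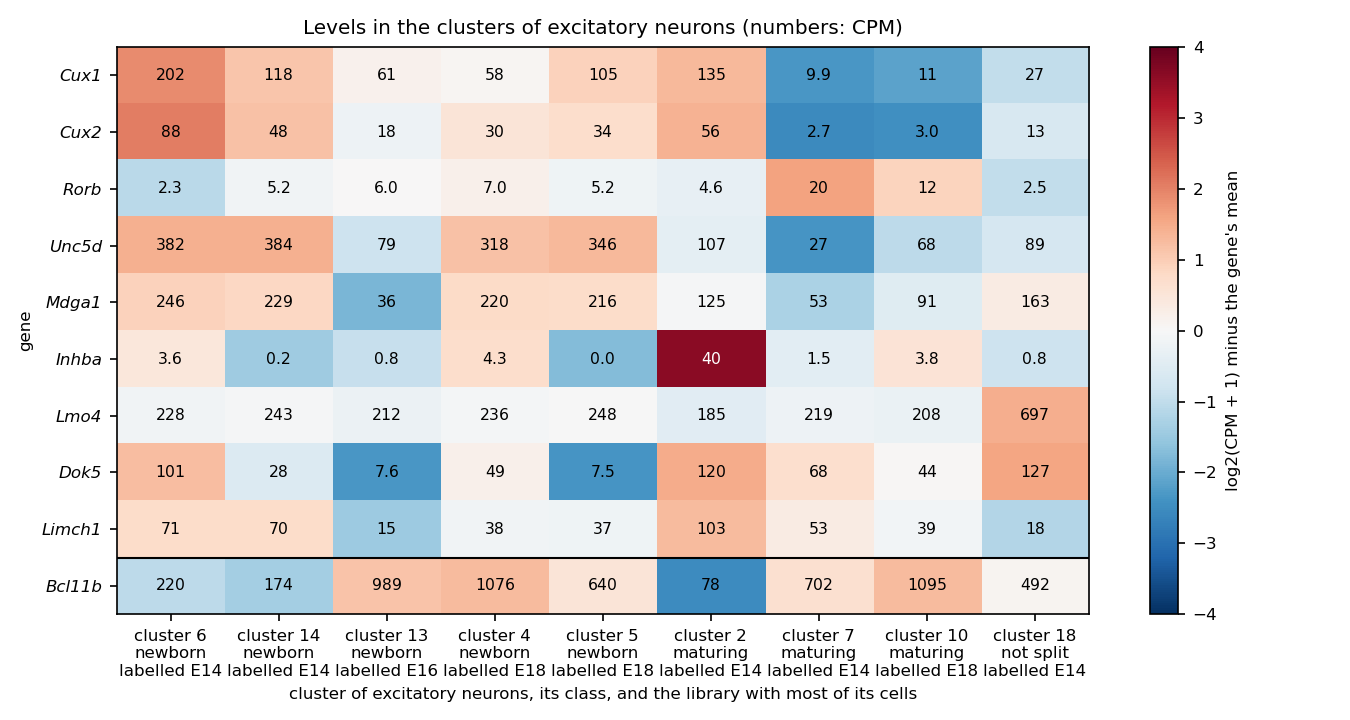
Levels of the 9 genes, and of Bcl11b for orientation, in the 9 clusters of excitatory neurons (columns, with their class and the library that gave most of their cells); numbers are CPM and colours are log2(CPM + 1) minus the gene's mean over the clusters. Cluster 2 stands out for Inhba (39.6 CPM), cluster 7 for Rorb (20.3 CPM) and cluster 18 for Lmo4 (697 CPM).

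Levels also differed between clusters of intermediate progenitors, read within each library because the clusters mixed libraries. Neurog2, a proneural factor, and Dll1, a Notch ligand, were among the leading genes of cluster 8. The cell cycle genes H1f5 and Pclaf were among those of cluster 9, and Ube2c, Cdc20 and Ccnb1 among those of cluster 16. The part of these genes in the levels was not tested. In the library labelled E18, Unc5d was at 14.1 CPM (10.7 to 18.2) in cluster 8 (397 cells of that library), 89.1 CPM (80.7 to 98.2) in cluster 9 (339 cells) and 133 CPM (119.8 to 148) in cluster 16 (235 cells). By the point estimates it ran in the same order labelled E14 (30.7, 109 and 137 CPM) and E16 (2.96, 7.34 and 22.7 CPM). Lmo4 did likewise, at 18.0, 90.4 and 183 CPM labelled E18, 39.2, 112 and 227 CPM labelled E14, and 14.8, 49.9 and 111 CPM labelled E16. Mdga1 differed less, at 135, 153 and 163 CPM labelled E18, 158, 121 and 129.7 CPM labelled E14, and 52.3, 63.1 and 65.8 CPM labelled E16. Dok5 ran the other way labelled E18, at 27.9 (23.0 to 33.5), 6.79 (4.61 to 9.63) and 3.08 (1.33 to 6.06) CPM, while its levels labelled E14 (13.1, 12.6 and 9.64 CPM) had overlapping intervals and those labelled E16 rested on 5 UMIs or fewer in each cluster.

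Outside the excitatory lineage Cux2 was high in GABAergic cells (57, 74 and 72 cells in label order), with 142 (106 to 186), 18.7 (9.32 to 33.4) and 264 (218 to 318) CPM. Labelled E14 and E18, that is above its level in every class of the excitatory lineage. In choroid plexus cells Cux2 was at 41.2 and 28.6 CPM labelled E16 and E18. Mdga1 was at 61.8 and 99.1 CPM in Cajal-Retzius cells labelled E16 and E18, the reelin-secreting neurons of the marginal zone, and at 0 to 9.35 CPM in GABAergic cells. Lmo4 was at 225 and 221 CPM in those Cajal-Retzius cells, and Unc5d at 37.1 and 27.6 CPM in meningeal cells.

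RNA free in the suspension can put UMIs into cells that do not express a gene, so levels were read beside cells of other origins. One cluster (69 cells, median 17264 UMIs) was named microglia by the marker rule but also held endothelial cells: its leading genes were Cldn5, of endothelial tight junctions, and C1qb, of microglia, and at Leiden resolution 0.5 clusters of 29 microglia and 28 endothelial cells stood in its place. In this mixed cluster Cux2 was at 0.566 CPM, Rorb at 1.13 CPM, Dok5 at 2.83 CPM, Unc5d at 3.96 CPM (1.59 to 8.16) and Mdga1 at 8.49 CPM (4.75 to 14), with 0 UMIs of Inhba. Set against the mixed cluster of their own library, the low levels of Unc5d and Mdga1 in radial glia labelled E14 and E18 were not told apart from background. The mixed cluster held Mdga1 at 16.1 (8.02 to 28.8) and 7.86 (2.14 to 20.1) CPM labelled E14 and E18, against 21.1 and 12.0 CPM in radial glia. It held Unc5d at 7.30 (2.37 to 17.0) and 3.93 (0.476 to 14.2) CPM, against 13.9 and 10.7 CPM. The mixed cluster labelled E16 (27 cells) had 0 UMIs of either gene, which allows up to 5.23 CPM by the limit of 3 counts, and radial glia labelled E16 held Unc5d (4.03 CPM) under that limit and Mdga1 (8.49 CPM) above it. Erythroid cells labelled E16 (123 cells) had 0 UMIs of Unc5d, which allows up to 0.740 CPM, and 0.247 CPM (0.00624 to 1.37) of Mdga1, so against these cells both levels in radial glia labelled E16 were above background. Cux1 (95.7 CPM), Lmo4 (75.3 CPM) and Limch1 (105 CPM) were far higher in the mixed cluster than in erythroid cells (133 cells, median 32326 UMIs), which held 4.14, 5.06 and 0.230 CPM of them, so the mixed cluster gives no background for these genes.

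Between libraries, excitatory neurons labelled E16, of which 572 of 585 were cells of cluster 13, held less of all 9 genes than all those labelled E14. The leading genes of cluster 13 were Calb1, Calb2, Lhx9, Ebf1 and Nxph4, none of which was among the 10 leading genes of the newborn clusters 4, 5, 6 and 14, so the newborn class does not hold the same clusters in each library. Called lower were 5 of the 9 and called higher 0, where 5.29% of 9629 genes were lower and 5.49% higher. The median log2 ratio of the 9 was -1.14 (-1.44 to -0.85), against -0.01 for all genes. The levels labelled E14 and E16 were 93.0 against 7.35 CPM for Dok5 (12.7-fold lower, 9.24 to 17.8), 15.5 against 0.754 CPM for Inhba (20.5-fold, 7.97 to 75.5, on 4 UMIs labelled E16), 72.4 against 14.7 CPM for Limch1 (4.93-fold, 3.93 to 6.25), 137 against 36.4 CPM for Mdga1 (3.76-fold, 3.26 to 4.36) and 40.2 against 17.7 CPM for Cux2 (2.27-fold, 1.84 to 2.82). Unc5d (152 against 78.8 CPM, 1.93-fold), Cux1 (97.6 against 60.5 CPM, 1.61-fold), Rorb (8.75 against 6.03 CPM, 1.45-fold) and Lmo4 (253 against 211 CPM, 1.2-fold) were not called. With newborn neurons alone the median was -1.93 and 6 of the 9 were lower and 0 higher, where 4.87% of 9601 genes were lower and 4.69% higher. Unc5d was then 4.83-fold (4.37 to 5.35) and Cux1 2.78-fold (2.47 to 3.14) lower and called, Inhba was not called, and Rorb turned to 1.71-fold (1.03 to 2.83) higher labelled E16.

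Neurons labelled E18 against E14 differed less. Called lower were Inhba (2.88 against 15.5 CPM, 5.37-fold, 4.18 to 7.0) and Dok5 (34.6 against 93.0 CPM, 2.69-fold, 2.49 to 2.91), so 2 of the 9 lower and 0 higher, where 2.21% of 9521 genes were lower and 2.06% higher. Unc5d (240.4 against 152 CPM, 1.58-fold, 1.52 to 1.64) and Mdga1 (174 against 137 CPM, 1.27-fold, 1.22 to 1.32) lay above the E14 level without being called. That direction was not seen within the classes: Unc5d was 0.873-fold (0.838 to 0.911) and Mdga1 0.905-fold (0.859 to 0.953) the E14 level in newborn neurons, and 0.944-fold (0.857 to 1.04) and 0.980-fold (0.902 to 1.06) in maturing neurons. Cux1, Cux2 and Limch1 lay 1.75-fold, 1.80-fold and 1.86-fold below it. The median was -0.80 (-0.89 to -0.68), against 0.03 for all genes. With newborn neurons alone the median shrank to -0.19, 3 of the 9 were lower (Cux1, Cux2 and Dok5, where 1.94% of 9416 genes were lower) and 0 higher (1.39%), and the log2 ratio of Inhba turned from -2.09 to 0.065 (-0.49 to 0.61).

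Neurons labelled E18 against E16, the comparison without the library labelled E14, were higher for 5 of the 9 and lower for 0, where 2.66% of 9580 genes were higher and 2.64% lower. Of the 8 genes that reached the 5 CPM minimum of that share, 4 were higher, since Inhba did not reach it. Those were Mdga1 (174 against 36.4 CPM, 4.77-fold, 4.13 to 5.54), Dok5 (34.6 against 7.35 CPM, 4.70-fold, 3.41 to 6.66), Inhba (2.88 against 0.754 CPM, 3.82-fold, 1.43 to 14.4), Unc5d (240.4 against 78.8 CPM, 3.05-fold, 2.76 to 3.38) and Limch1 (39.0 against 14.7 CPM, 2.65-fold, 2.10 to 3.38). Cux1 (1.08-fold lower), Cux2 (1.26-fold higher), Rorb (1.35-fold higher) and Lmo4 (1.09-fold higher) were not called. The median was 1.15 (0.35 to 1.68), and 0.26 with 10 CPM added. With newborn neurons alone 4 of the 9 (Unc5d, Mdga1, Dok5 and Limch1) were higher and 0 lower, where 2.31% of 9501 genes were higher and 3.39% lower.

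Neurons in the library labelled E16 also had a higher summed level of the Cajal-Retzius markers. That list includes Calb2, a leading gene of cluster 13, and its part in the sum was not read out. The summed level of that list, with 7 of 7 markers detected in each library, was 13.2, 431 and 44.9 CPM in excitatory neurons in label order. The 9 GABAergic markers summed to 9.14, 3.39 and 1.69 CPM there. Markers of less mature cells were higher there too: those of radial glia (12 of 12 detected in each library) summed to 292, 523 and 457 CPM, those of intermediate progenitors (10 of 10) to 947, 1757 and 1360 CPM and those of newborn neurons (9 of 9) to 1136, 2590 and 2255 CPM. The markers of maturing neurons, 11 of 11 detected in each library, summed to 6703, 5564 and 5830 CPM, although no neurons labelled E16 were named maturing. The part of these in the differences of the 9 genes was not tested.

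In radial glia the differences between libraries that passed 2-fold belonged to 4 of the 9 genes. Labelled E16 against E14, Limch1 (14.5 against 108 CPM, 7.45-fold, 6.67 to 8.31), Dok5 (16.8 against 103 CPM, 6.14-fold, 5.52 to 6.84), Unc5d (3.44-fold, 2.62 to 4.49) and Mdga1 (2.49-fold, 2.02 to 3.05) were lower and 0 higher, where 7.24% of 9902 genes were lower and 2.43% higher. Labelled E18 against E14, only Limch1 was called, 2.05-fold (1.87 to 2.26) lower, where 3.28% of 9896 genes were lower and 0.97% higher. Labelled E18 against E16, Dok5 (7.33-fold, 6.78 to 7.94), Limch1 (3.63-fold, 3.30 to 3.98) and Unc5d (2.66-fold, 2.20 to 3.22) were higher and 0 lower, where 1.97% of 9684 genes were higher and 0.682% lower. The medians of the 9 were -0.84 (-1.30 to -0.31), -0.15 (-0.52 to 0.21) and 0.46 (0.26 to 0.66), against -0.12, -0.06 and 0.07 for all genes. The Unc5d and Mdga1 values among these rest on levels near those of the mixed cluster of microglia and endothelial cells. Dok5 and Limch1 were called in both classes for E16 against E14 and E18 against E16, in the same directions, whereas for E18 against E14 Dok5 pointed opposite ways (log2 ratios of 0.25 in radial glia and -1.40 in neurons). The levels of Cux1, Cux2 and Lmo4 in radial glia stayed within 1.24-fold in all 3 comparisons. Markers of other classes did not all run the same way in radial glia. Those of maturing neurons (10, 11 and 11 of 11 detected) summed to 413, 86.2 and 128 CPM in label order. Those of intermediate progenitors (10 of 10) summed to 1505, 545 and 760 CPM. Markers of newborn neurons (102, 97.6 and 86.8 CPM) and GABAergic cells (7.95, 2.93 and 2.15 CPM) were also highest labelled E14. Those of choroid plexus (3.21, 16.2 and 41.5 CPM) and Cajal-Retzius cells (7.61, 15.3 and 8.75 CPM) were lowest there. The 12 markers of radial glia themselves summed to 10286, 4341 and 6297 CPM. The part of these in the differences was not tested.

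**Figure D3:**
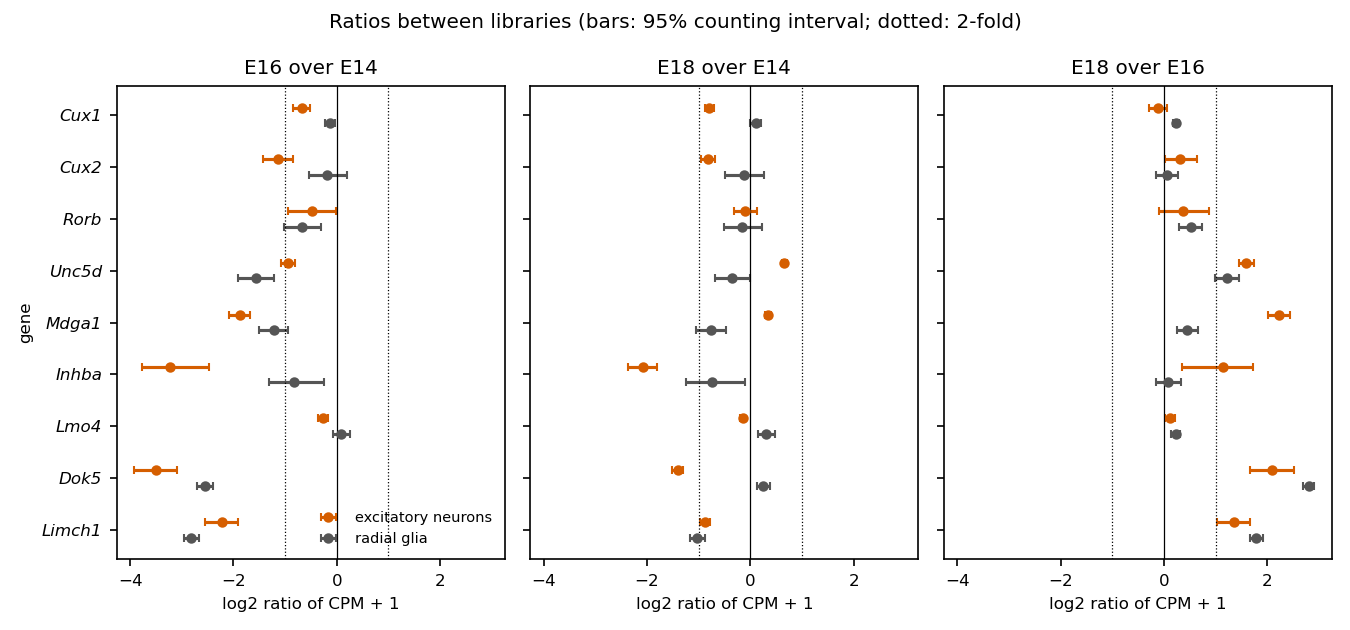
Log2 ratio of each gene's level between libraries (horizontal axis, 1 CPM added) in excitatory neurons and in radial glia, 1 panel per pair of libraries, with 95% counting intervals as bars and dotted lines at 2-fold. Dok5 and Limch1 lie left of the 2-fold line in both cell classes for E16 over E14 and right of it for E18 over E16.

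Lists of other layer genes are given for contrast. Of 19 other upper layer and callosal genes, 14 had at least 5 CPM over both groups in neurons, and the counts run over these. Labelled E16 against E14, 3 were higher and 7 lower, where 5.49% and 5.29% of all genes were, and the median log2 ratio was -0.85. Labelled E18 against E14, 0 were higher and 6 lower (2.06% and 2.21% of all genes), with a median of -0.35. Labelled E18 against E16, 0 were higher and 0 lower (2.66% and 2.64%), with a median of 0.08. All 13 deep layer and corticofugal genes had at least 5 CPM, and the counts were 5 higher and 5 lower (median 0.55), 5 and 1 (0.63), and 4 and 1 (0.17). In neurons over radial glia the upper list had 6, 6 and 7 higher and 4, 3 and 4 lower of 14 in label order. The deep list had 8, 6 and 9 higher and 1, 1 and 2 lower of 13, 11 and 13. Of all genes 13.4%, 14.7% and 13.7% were higher in that comparison and 19.6%, 17% and 17.1% lower. In radial glia the upper list had 0, 0 and 2 higher and 6, 4 and 1 lower of 14, 14 and 11 over the 3 comparisons, and the deep list 2, 0 and 1 higher and 5, 1 and 1 lower of 11, 11 and 10, where 2.43%, 0.97% and 1.97% of all genes were higher and 7.24%, 3.28% and 0.682% lower.

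Named genes of these lists differed in direction. Ptn, a secreted growth factor, was at 464, 71.4 and 105 CPM in excitatory neurons in label order, and Cited2, a transcriptional co-activator, stood at 375, 169 and 304 CPM. Bhlhe22, a bHLH factor, was at 316, 208 and 239.7 CPM without a call, and Lhx2, a LIM homeodomain factor, was higher labelled E16, at 237, 582 and 327 CPM. Of the deep list Bcl11b (328, 991 and 949 CPM), Tbr1, a T-box factor of layer 6 (148, 559 and 341 CPM), and Pcp4, a calmodulin-binding protein (171, 1210.1 and 1277 CPM), were lowest labelled E14, while Sox5, an HMG-box factor, was lowest labelled E16 (335, 159 and 574 CPM).

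Pairs of the 9 genes were then read cell by cell, after each cell was thinned to 2000 UMIs so that depth did not set detection. At that depth the share of excitatory neurons with a UMI of Unc5d was 27.7%, 11.4% and 36.2% in label order (63.4%, 35.0% and 70.7% unthinned), and that of Cux2 8.08%, 2.93% and 5.22%. In the mixed cluster of microglia and endothelial cells, 2 of 69 thinned cells held Unc5d and 0 held Cux2, which allows a share of up to 4.35% by the limit of 3 counts. None of the 9 was seen in 20.5%, 50.7% and 25.3% of neurons, and at least 3 in 18.4%, 2.07% and 13.4%. Neurons labelled E16 were thus the poorest in the set, with a mean of 0.640 genes per cell against 1.5 labelled E14 and 1.29 labelled E18.

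At this depth Cux2 and Unc5d were the pair found together most often relative to their frequencies. Labelled E14, 46.5% of neurons with Cux2 held Unc5d against 26.0% of those without (a difference of 20.5 percentage points, 14.3 to 26.8, odds ratio 2.48). Labelled E18 the shares were 58.1% and 35.0% (23.1 points, 13.7 to 32.1, odds ratio 2.58). Labelled E16 no pair reached 20 cells in the expected overlap after thinning. Unthinned, the same pair was highest there, with Unc5d in 64.5% of neurons with Cux2 and 30.7% of those without (33.8 points, 21.3 to 45.2), and also labelled E18 (odds ratio 2.93). Labelled E14 the highest pair without thinning was Cux1 with Cux2 (4.54).

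The rank of the pair in narrower groups of cells depended on the group and on the thinning. In newborn neurons alone the odds ratio of Cux2 and Unc5d was 1.61 labelled E14 (11.7 points, 3.00 to 19.9) and 1.92 labelled E18 (16.1 points, 6.42 to 25.3), the highest of the pairs with enough cells. In maturing neurons labelled E14 Cux1 with Unc5d (2.26) led the pairs with at least 20 cells expected to hold both, and Cux2 with Unc5d (2.82), with 14.4 expected, did not enter. In the clusters 2, 4, 5, 6 and 14 Cux2 with Unc5d was again the highest, at 1.84, 2.02, 1.70, 1.55 and 1.88. The intervals of the difference in clusters 5 and 14 include 0. Without thinning it was the highest in cluster 4 of these 5, and other pairs led in the rest: Cux1 with Cux2 in clusters 2 (4.38) and 6 (2.04), Mdga1 with Dok5 in cluster 5 (2.7) and Lmo4 with Dok5 in cluster 14 (2.87). At 2000 UMIs Mdga1 with Lmo4 led in clusters 7, 10 and 18 (1.71, 0.923 and 0.997), where 3, 2 and 3 pairs had enough cells. Unc5d with Lmo4 led without thinning in newborn neurons labelled E14 (2.26) and E18 (2.10). In both libraries the difference was smaller in newborn neurons than over all neurons.

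Over all neurons labelled E14, 24 of the 36 pairs had at least 20 cells in the expected overlap, and 14 lay above and 10 below independence. The interval of the difference lay above 0 for 7 pairs and below 0 for 3. Besides Cux2 with Unc5d, the pairs above were led by Cux1 with Cux2 (odds ratio 2.01, 13% against 6.89%), Cux1 with Unc5d (1.90) and Unc5d with Mdga1 (1.69). Those below were Inhba with Lmo4 (0.46, 20.0% against 35.1%, a difference of -15.1 points, -23.4 to -4.57), Cux1 with Lmo4 (0.68) and Lmo4 with Limch1 (0.69). All 3 pairs below 0 held Lmo4.

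Labelled E18, 16 pairs had enough cells, 11 lay above and 5 below independence, and the interval lay above 0 for 6 and below 0 for 0. Cux1 with Unc5d (1.70) and Unc5d with Mdga1 (1.49) followed Cux2 with Unc5d. Cux1 with Lmo4 had an odds ratio of 0.80 with a difference of -4.51 points (-9.98 to 1.38). For Cux1 and Cux2, the homologous pair, the interval of the difference included 0 there (6.32% against 5.07%, a difference of 1.24 points, -1.49 to 4.84) and labelled E16 (0.273 points, -3.07 to 8.20). These values are unsteady: another thinning draw gave 4.36 and 4.31 points, and labelled E18 the difference was 5.92 points with doublets kept, 5.74 under a looser cell filter and 9.12 without thinning. Their difference labelled E14, 6.08 points (3.41 to 9.02), moved to 2.79 points (-1.17 to 7.15) in newborn neurons alone and to 29.3 points without thinning. In maturing neurons labelled E14, thinned, it was 7.66 points (3.83 to 12.2).

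**Figure D4:**
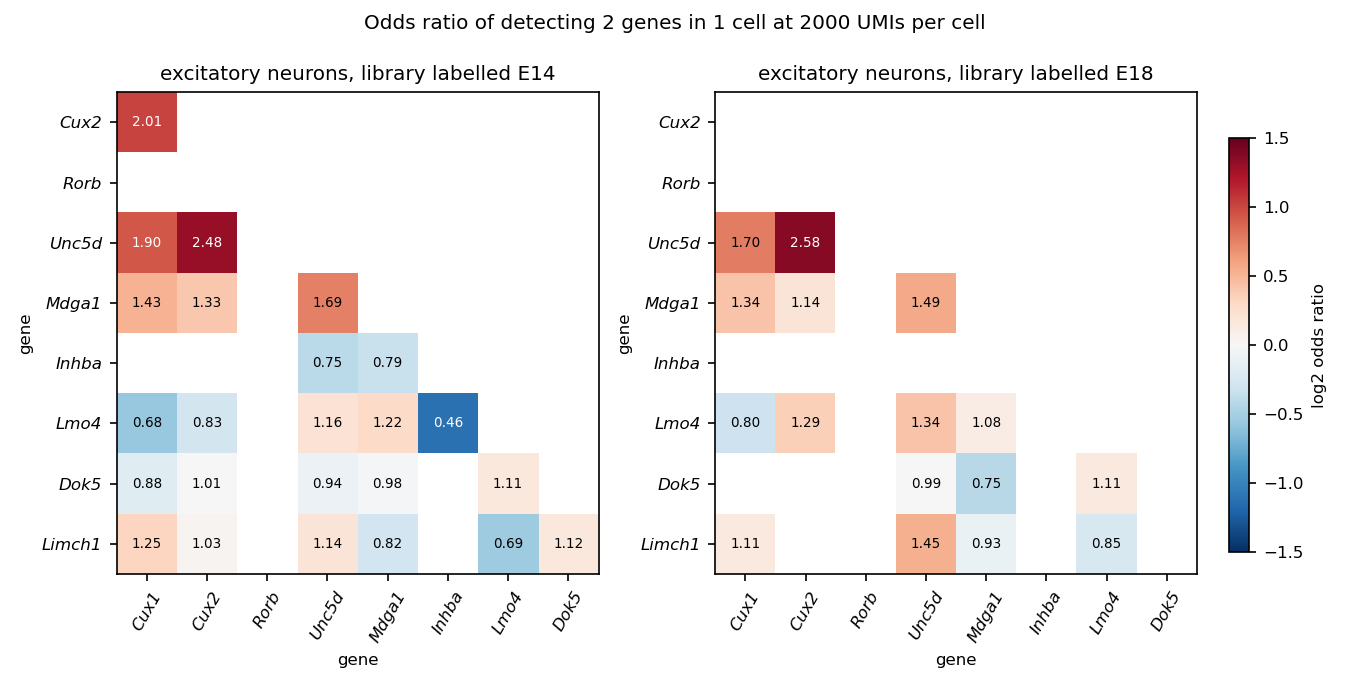
Odds ratio of detecting both genes of a pair in 1 excitatory neuron thinned to 2000 UMIs (numbers; colour is its log2), for the libraries labelled E14 and E18; pairs with fewer than 20 cells in the expected overlap are blank. Cux2 with Unc5d is the darkest red square of both panels, at 2.48 and 2.58.

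Progenitors gave few pairs. In radial glia labelled E18 the highest was Lmo4 with Dok5 (odds ratio 1.51, Dok5 in 28.0% of cells with Lmo4 and 20.5% of those without, a difference of 7.5 points, 1.14 to 14.4). Cux1 with Lmo4 lay at 0.89 labelled E16 and 0.92 labelled E18. In intermediate progenitors labelled E18 Cux1 with Unc5d (1.33) was highest and Mdga1 with Lmo4 (0.69) lowest, with intervals that include 0. Unc5d and Mdga1, joined in neurons, stood at 0.90 in those progenitors.

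In maturing neurons labelled E14 (1839 thinned cells) most of the genes were found apart from Bcl11b. For comparison, 3 of 69 thinned cells of the mixed cluster (4.35%) and 0 of 133 erythroid cells held Bcl11b. Bcl11b was seen in 4.05% of these maturing neurons with Inhba against 33.8% of those without. The shares were 8.77% against 34.1% for Cux2, 11.6% against 36.4% for Cux1 and 12.0% against 35.6% for Unc5d. Mdga1 (22.4% against 34.7%), Limch1 (22.4% against 34.4%) and Dok5 (25.3% against 34.1%) followed, with differences of -12.4, -12.0 and -8.82 points. Lmo4 went neither way beyond counting error at this depth (35.6% against 31.3%, a difference of 4.31 points, -0.50 to 9.21). Without thinning Lmo4 went with Bcl11b, at 60.9% against 39.8% (21.1 points, 15.5 to 26.5). Rorb went with Bcl11b, at 61.1% against 32.0% (29.1 points, 11.3 to 45.0, on 22 of 36 cells). Tbr1, the other deep layer gene read this way, was not set apart at this depth, as every interval of its difference included 0. Its shares were 26.3% against 23.3% for Cux2, 23.0% against 23.5% for Inhba and 22.2% against 23.5% for Rorb. Without thinning Cux1 (-9.98 points, -14.0 to -5.96) and Unc5d (-4.89 points, -8.88 to -0.902) lay apart from Tbr1. Rorb (12.5 points, 6.68 to 17.3) and Lmo4 (8.06 points, 3.11 to 13.2) then went with it. These values and the split into clusters 2 and 7 come from the same cells.

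Cux1, Cux2 and Unc5d were not set apart from Bcl11b in newborn neurons labelled E14. Bcl11b was seen in 30.4% of those neurons with Cux1 against 27.3% (3.12 points, -2.38 to 8.84) and in 34.4% against 27.4% with Cux2 (7.06 points, -0.86 to 15.5). Unc5d went with Bcl11b there (31.4% against 24.8%, 6.56 points, 1.62 to 11.5), as it did in newborn neurons labelled E18 (78.5% against 70.1%, 8.35 points, 4.16 to 12.5). Unc5d thus went with Bcl11b in newborn neurons and against it in maturing neurons labelled E14. In maturing neurons labelled E18, where 534 of 625 cells held Bcl11b, Unc5d was not set apart from it (87.2% against 85.2%, 1.99 points, -7.93 to 9.26), and the intervals of Mdga1 (-6.54 points, -15.9 to 1.33), Lmo4 (2.16 points), Dok5 (3.54 points) and Limch1 (-4.81 points) also included 0. Cux1 (17 cells), Cux2 (5), Inhba (5) and Rorb (8) had too few positive cells there for a reading.

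**Figure D5:**
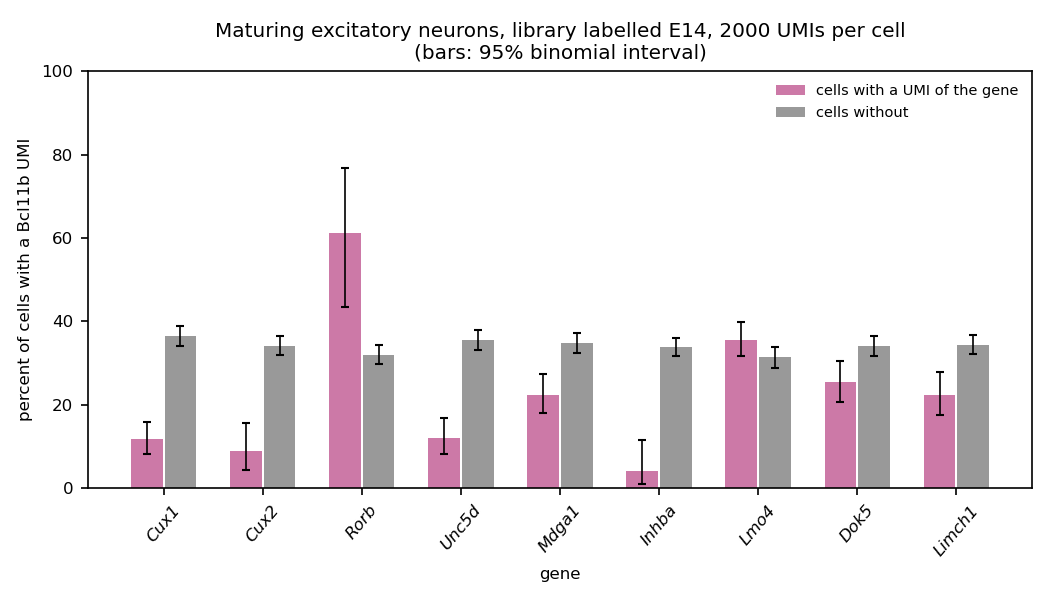
Percent of maturing excitatory neurons labelled E14, thinned to 2000 UMIs, that hold a Bcl11b UMI (vertical axis), among cells with and without a UMI of each of the 9 genes (horizontal axis); error bars are 95% binomial intervals. Inhba cells are at 4.05% and Rorb cells at 61.1%.

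Genes with the most similar course were sought by Pearson's r of log2(CPM + 10) over the 21 groups of class and library with at least 50 cells, which share libraries and depth, so r is a description. Mdga1 was closest to Carmil3 (r = 0.923) and Prdm8 (0.911), Lmo4 to Capns1 (0.905) and Serinc1 (0.902), and Unc5d to Cdh8 (0.889) and Pdp1 (0.881). Cux1 was closest to Gtf3c2 (0.871) and Fnbp4 (0.863), Limch1 to Egln1 (0.839) and Rnf151 (0.812), and Cux2 to Bnip3l (0.831) and Rps6ka5 (0.805). Dok5 was closest to Wdr46 (0.774) and Map2k6 (0.767) and Rorb to Slf1 (0.737) and Cdkal1 (0.732). For Inhba, Camk2b reached 0.722. Among the 9 themselves Dok5 with Limch1 (0.742) and Unc5d with Mdga1 (0.739) were the most alike, Cux1 with Cux2 reached 0.547, and Cux2 with Rorb was the lowest at -0.172.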

How the data were processed

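Cells of the embryonic rat cerebral cortex were measured in 3 libraries (10x Genomics Single Cell 3′ kit, version 3.1, per the labels' protocols), 1 per label. The deposited matrices hold raw counts of UMIs per gene and cell, not normalized, made by the authors with Cell Ranger 6.0.1 on the build mRatBN7.2, per the submitters' processing notes. Levels of different genes are not set against each other.

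Barcodes needed 1000 detected genes, and their UMIs from the 13 mitochondrial genes could not exceed 10%. Of 7100, 6707 and 6937 barcodes in label order, 4444, 5193 and 5690 passed, and the highest Scrublet scores were removed at 0.8% per 1000 cells (158, 216 and 259 cells). Cells were clustered together with Scanpy 1.11.5 (2000 variable genes, 30 components, 15 neighbours, Leiden resolution 1) without the 9 genes and without the other layer lists. Of 25 clusters, 24 were named from 121 marker symbols of 14 classes. Levels are the sum of a gene's UMIs over the cells of 1 class in 1 library, per 1000000 UMIs of those cells (CPM). Intervals are exact Poisson for levels, exact conditional for ratios and exact binomial (Clopper-Pearson) for shares, and where no UMI or cell was seen the limit given is that of 3 counts. They cover counting error only, not variation between embryos. For pairs, each cell was thinned to 2000 UMIs and cells below that were left out. Scripts were tested on simulated data. The 9 genes are all named; of each contrast list the 4 genes with the highest mean level in excitatory neurons are named besides Bcl11b and Tbr1, and for similar genes the 2 with the highest r. Of the upper layer contrast list 1 gene is not reported here, also where this rule would name it. Members and lists were chosen with earlier results of these data known. Alternatives were the cell filter, doublets, Leiden resolution, separate clustering, the CPM added, rescaling, a level minimum and the thinning depth. Newborn neurons alone, another thinning draw and the steps between classes under each clustering were added after seeing the data. No test, p-value or standard error was possible with 1 library per label.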

Additional observations from a re-analysis of the deposited data

Results flagged for a closer look

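For 3 of the 9 genes the ratio of the library labelled E18 over that labelled E14 pointed one way in excitatory neurons and the other way in radial glia, with counting intervals that exclude 0 in both. Of the 8637 genes with at least 5 CPM in both comparisons, 767 (8.88%) did so, and all 3 are among the 8 of the 9 genes that have that level. For E16 over E14, 0 of 8 did so, where 10.9% of 8722 genes did. For E18 over E16 it was 0 of 8, where 6.17% of 8593 genes did. Unc5d (0.66 in neurons and -0.35 in radial glia) and Cux1 (-0.80 and 0.11) also pointed opposite ways, with intervals in radial glia that include 0. The log2 ratio of Mdga1 was 0.34 in neurons and -0.77 in radial glia, a difference of 1.11. That of Dok5 was -1.40 in neurons and 0.25 in radial glia, a difference of -1.66. That of Lmo4 was -0.15 in neurons and 0.31 in radial glia, a difference of -0.46. Within classes of neurons only Dok5 kept its direction, at -1.24 in newborn and -1.15 in maturing neurons. Mdga1 was at -0.14 and -0.03 there and Lmo4 at 0.02 and 0.03, so the directions of these 2 over all neurons were seen in neither class. The libraries differ in their mix of classes, and the unsplit cluster 18, with Lmo4 at 697 CPM, is labelled E14 for 235 of its 238 cells. With 1 library per label none of these differences was tested.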

How the results depend on the processing

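Of 37 ratios of single genes past 2-fold among 81, 25 stayed past it with 10 CPM added, 36 after rescaling by the median of all genes, 36 and 37 at Leiden resolutions 0.5 and 2, 36 with doublets kept, 34 with each library clustered on its own, 37 under the looser and 32 under the stricter cell filter, 27 of 27 with a minimum of 20 CPM and 24 of 29 in newborn neurons alone. Newly past it were 1 after rescaling, 4 with doublets kept, 6 with separate clustering, 5 under the stricter filter and 5 in newborn neurons, and 0 under the others. Of these ratios only Inhba in neurons, E18 over E14, changed sign among those past 2-fold, at 0.065 in newborn neurons. The median log2 ratio of neurons over radial glia labelled E14 (1.89) was 1.21 with 10 CPM added, 1.51 with doublets kept, 0.66 in newborn neurons and 1.35 under the stricter filter. Labelled E16 (0.64) it was 1.90 over the 4 genes of at least 20 CPM, 0.086 with 10 CPM added, 0.10 with separate clustering and 0.40 under the stricter filter. Labelled E18 (1.19) it was 0.34 with 10 CPM added, 1.45 with separate clustering, 0.65 with the 20 CPM minimum and 1.48 in newborn neurons. In neurons, E16 over E14 (-1.14) was -1.93 in newborn neurons and -0.64 under the stricter filter. E18 over E14 (-0.80) was -0.63 with 10 CPM added, -0.67 at resolution 2, -0.60 with separate clustering, -0.19 in newborn neurons and -0.38 under the stricter filter. E18 over E16 (1.15) was 0.26 with 10 CPM added and 1.79 with separate clustering. In radial glia, E16 over E14 (-0.84) was -1.39 with doublets kept, -1.34 with the 20 CPM minimum and -0.35 with 10 CPM added, E18 over E14 (-0.15) ran from -0.34 with doublets kept to 0.18 with that minimum, which leaves 4 genes, and E18 over E16 (0.46) was 0.25 with 10 CPM added and 1.01 with that minimum. The share of Cux2 among Cux1 neurons minus that among the others, labelled E14 (6.08 points), was 11.9 at resolution 0.5, 9.80 with separate clustering, 2.79 in newborn neurons, 29.3 without thinning and -1.49 under the stricter filter, which left 81 neurons. Labelled E16 (0.273) it was -4.57 under that filter. Labelled E18 (1.24) it was 5.92 with doublets kept, 5.74 under the looser filter, 9.12 without thinning and 7.38 under the stricter filter. Another thinning draw gave 9.01, 4.31 and 4.36 points in label order. Of 13 steps from intermediate progenitors to newborn neurons past 2-fold, 7 to 13 stayed past it over the 6 other clusterings and filters, and of 10 steps on to maturing neurons, 4 to 10. Among the steps past 2-fold, signs changed for Cux2 labelled E14 (0.88 maturing over newborn, -0.50 newborn over progenitor) and Rorb labelled E14 (-1.75). Both were under the stricter filter, which left 26 newborn neurons. They also changed for Inhba labelled E18 (-0.13) at resolution 0.5 and for Limch1 labelled E16 (-1.11) with separate clustering. Some smaller steps turned as well, as given above for Rorb and Inhba labelled E18. The causes were not tested.

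No paired analysis was possible because each label has 1 library. Rorb and Inhba took too few UMIs per cell for most pairs, and neurons labelled E16 (580 thinned cells) gave none, so co-detection there was not readable at this depth. Class names rest on clusters rebuilt here, and neuron clusters cannot be told apart from libraries.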
